A study of Homo sapiens with 4 samples.

Results

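The metallothionein genes examined here were MT1A, MT1E, MT1F, MT1G, MT1H, MT1L, MT1M, MT1X and MT2A, 9 of the 63677 genes counted in each library. They were picked by symbol with the knockdown values of these same libraries already known, so their knockdown-to-control ratios are given as a description and carry no test. RNA was sequenced from IMR90, a human fetal lung fibroblast line, in 2 groups of 2 libraries. Control cells received a non-targeting siRNA and HMGB1 knockdown cells an siRNA against HMGB1, a chromatin-bound high-mobility group protein. In both groups RNAiMAX was the transfection reagent and poly(A) RNA was taken after 72 h, and each group held 1 library of the isolate I90-10 and 1 of the isolate I90-79, listed at passage 5. The study's methods mention more than one siRNA for IMR90, and which of them went into which library is not given in the sources used here.

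Metallothioneins are very small, cysteine-rich proteins that hold zinc and copper ions in cells and also bind cadmium. Most human genes of the family lie side by side on chromosome 16, and in many cell types zinc induces them through MTF1, a transcription factor that binds short metal response elements in their promoters. Glucocorticoids, oxidative stress and hypoxia are further known inducers. MT2A is the isoform that most tissues express, the MT1 genes are its close relatives, and MT1L is annotated as a transcribed pseudogene.

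The libraries held between 29861687 and 35317010 reads counted on genes. HMGB1 had a normalized level of 181 and 237 CPM (reads of a gene scaled to a common library size with TMM factors) in the control libraries of I90-10 and I90-79, and of 17.4 ± 2.05 CPM (SD, n = 2) in the knockdown libraries. The log2 ratio was −3.50 in I90-10 and −3.65 in I90-79, and the fitted log2-fold change was −3.59 (SE 0.19, adjusted p = 0.00751, edgeR's quasi-likelihood test). All 8 fibroblast markers on the list exceeded 1 CPM in every library, with summed levels of 17888 to 33964 CPM in control and 20285 to 32320.0 CPM in knockdown libraries. The collagens make up most of these sums, and THY1 (423 and 199.9 against 229 and 93.3 CPM) and PDGFRB (186 and 92.5 against 103 and 64.9 CPM) were lower in the knockdown library of each isolate. Markers of blood cells summed to at most 0.346 CPM in any library, with LYZ at 0, and the 3 endothelial markers found summed to 3.39 to 4.33 CPM in knockdown libraries and less in both controls, mostly from VWF (1.36 and 0.923 CPM in control, 4.16 and 2.59 CPM in knockdown libraries), with CDH5 at 0. The 5 epithelial markers summed to 64.0 to 67.9 CPM in control and 82.0 to 99.0 CPM in knockdown libraries, with EPCAM and CDH1 below 1 CPM in all libraries. Of these, KRT18 was higher in the knockdown library of each isolate (39.5 and 52.8 against 65.9 and 88.8 CPM), whereas KRT8 (18.3 and 13.8 against 12.0 and 9.16 CPM) and KRT19 (5.48 and 0.787 against 3.46 and 0.512 CPM) were lower. The part of these marker differences in the metallothionein values was not tested, and in bulk RNA fewer cells of a type and less RNA per cell cannot be told apart. The 2 libraries of a group came from different isolates and no isolate was repeated within a group. The p-values of the fit without an isolate term, as for HMGB1 here, thus measure a spread that includes the difference between isolates. In fits with the isolate as a term, p-values measure the spread left after the mean isolate difference is taken out.

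The promoter sequences of 3 of the 9 genes, MT2A, MT1X and MT1H, were at hand (RefSeq, GRCh38.p14), each 300 bases long with 250 before the annotated start. MT1A, MT1E, MT1F, MT1G, MT1L and MT1M had no entry. The core of the metal response element was searched as TGCACNC or TGCGCNC on both strands. MT2A held 8 matches, MT1H held 8 and MT1X held 4. At least 1 match was present in 29.5% of all 34796 promoters, at least 4 in 0.598%, and at least 8 in 0.0201%. One match lay at nearly the same place in all 3 promoters, 53 or 54 bases before the start, and also in MT1B, a family member with 0 counts in every library. MT4, a family member on the same chromosome, held 3 matches, at -209, -196 and -90, and none at this place. The windows of the shared match are printed on the strand of the gene to show how alike they are, with the match in capitals:
MT2A, position -54, chr16:56608520-56608546, plus strand: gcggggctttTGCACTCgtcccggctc
MT1X, position -53, chr16:56682407-56682433, plus strand: gcggggcctcTGCGCCCggccctcttc
MT1H, position -53, chr16:56669751-56669777, plus strand: gcagggtctcTGCACCCggctccctcc
MT1B, position -53, chr16:56651823-56651849, plus strand: gcggggcctcTGCACCCcaccacctcc

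A further match, in the opposite orientation, lay upstream of it in each of the 4 promoters. It was not particular to them, since the MT4 match at -90 had the same orientation and the same letters as that of MT2A at -88. The windows of the 4 promoters are also shown on the strand of the gene, so the capitals are the reverse complement of the element:
MT2A, position -88, chr16:56608486-56608512, plus strand: agcgcggggcGTGTGCAggcagcgccc
MT1X, position -78, chr16:56682382-56682408, plus strand: cagcaggggcGGGTGCAaggacgaggc
MT1H, position -78, chr16:56669726-56669752, plus strand: tcagtgggtcGGGTGCAagggtggggc
MT1B, position -79, chr16:56651797-56651823, plus strand: cagcaggggtGAGTGCAagggccaggg

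The core of the antioxidant response element, TGACNNNGC, occurred in 13.3% of all promoters. It had 1 match each in MT2A, MT1X and MT1B and 0 in MT1H and MT4. The TATA box, TATAAA, occurred in 11.6% of promoters and had 1 match each in MT2A, MT1X, MT1B and MT4, while MT1H had 0. The MT2A match to the antioxidant element and the TATA boxes of MT2A and MT1X are shown because the MT1H window held neither string:
MT2A, antioxidant element, position -104, chr16:56608470-56608498, plus strand: gagccgcaagTGACTCAGCgcggggcgtg
MT2A, TATA box, position -29, chr16:56608545-56608570, plus strand: tctttctagcTATAAAcactgcttgc
MT1X, TATA box, position -30, chr16:56682430-56682455, plus strand: cttcccggacTATAAAgagagccgcc

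Matches of different motifs were allowed to overlap. A match describes the letters of the window and is not a measured binding site.

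**Figure D1:**
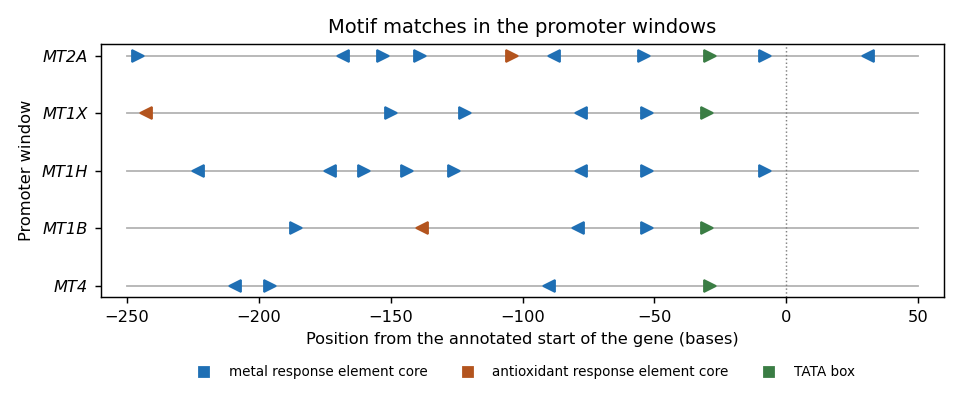
Positions of motif matches, in bases from the annotated start (dotted line), in the promoters of MT2A, MT1X, MT1H, MT1B and MT4; arrowheads to the right are on the strand of the gene and those to the left on the opposite strand. MT2A and MT1H held 8 metal response element cores each, MT1X held 4, and MT1B and MT4, both with 0 counts in every library, held 3 each.

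The 9 genes together had 637 CPM in the control and 2649.5 CPM in the knockdown library of I90-10, and 1379.7 and 3094 CPM in those of I90-79. The sums were 4.16-fold and 2.24-fold higher, a mean log2 ratio of 1.61 ± 0.63 (SD, n = 2 isolates). Both knockdown libraries thus exceeded both control libraries, and the control libraries of the 2 isolates differed more from each other (2.16-fold) than the knockdown libraries did (1.17-fold).

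MT2A (ENSG00000125148, chr16:56642111-56643409, hg19, plus strand) supplied most of these reads. It had 558 CPM in the control and 2323 CPM in the knockdown library of I90-10, and 1223 and 2728 CPM in those of I90-79. Levels were lowest in the I90-10 control and the groups did not overlap, with the lower knockdown library at 1.90 times the higher control library. The ratio was 4.16-fold in I90-10 and 2.23-fold in I90-79, a mean log2 ratio of 1.61 ± 0.64 (SD, n = 2). MT2A made up 87.6% and 88.6% of the family's reads in control cells and 87.7% and 88.2% in knockdown cells, so the family total differed between groups while the share of MT2A was about the same.

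MT1E (ENSG00000169715, chr16:56659387-56661024, plus strand), a protein-coding MT1 gene, was the next most abundant. Its level was 64.6 CPM in the control and 258 CPM in the knockdown library of I90-10, and 130.4 and 293 CPM in those of I90-79. Again the I90-10 control was lowest, the knockdown libraries lay close together and the groups did not overlap. The ratios were 3.99-fold and 2.25-fold, close to those of MT2A in each isolate. MT1E made up 9.45% to 10.1% of the family's reads in all 4 libraries.

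MT1L (ENSG00000260549, chr16:56651388-56652730, plus strand), the pseudogene between MT2A and MT1E, had the smallest ratios. It had 9.63 CPM in the control and 22.2 CPM in the knockdown library of I90-10, and 18.4 and 22.6 CPM in those of I90-79. The 2 knockdown libraries and the I90-79 control were close to each other and only the I90-10 control stood clearly below. The ratio was 2.31-fold in I90-10 and 1.23-fold in I90-79, and the lower knockdown library was 1.21 times the higher control library. Its share of the family's reads was 1.51% and 1.33% in control and 0.839% and 0.731% in knockdown libraries.

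MT1X (ENSG00000187193, chr16:56716336-56718108, plus strand), a protein-coding gene at the far end of the cluster, had 4.56 and 7.46 CPM in the control libraries of I90-10 and I90-79 and 30.8 and 33.9 CPM in the knockdown libraries. The groups were well apart, with the lower knockdown library at 4.13 times the higher control library. MT1X had the most even ratios of the family between the isolates, 6.76-fold in I90-10 and 4.54-fold in I90-79 (mean log2 ratio 2.47 ± 0.40, SD, n = 2). An unnamed gene on the same strand (ENSG00000259827) covers 18.1% of its exon bases.

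**Figure D2:**
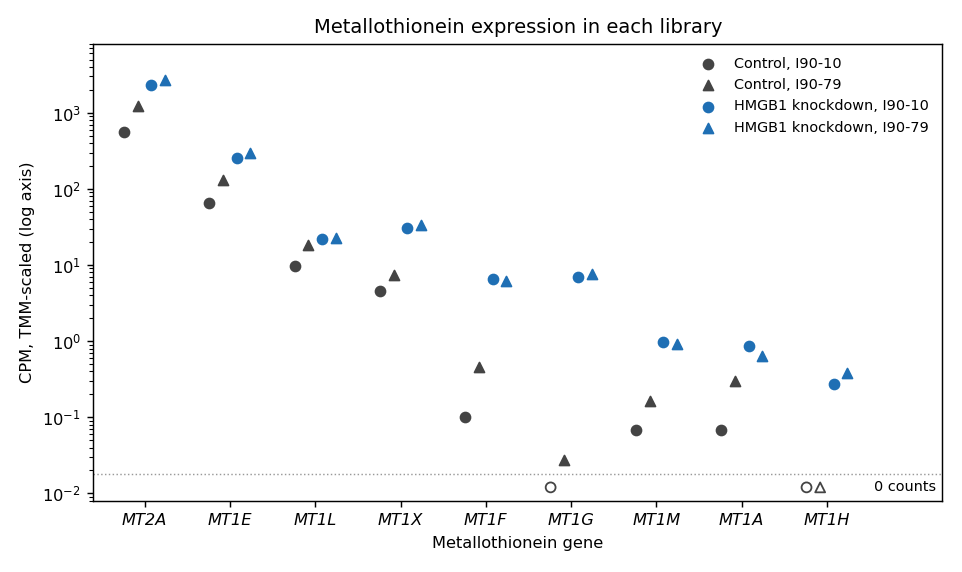
Normalized level of each of the 9 genes in each library (CPM scaled by TMM factors, log axis; circles, I90-10; triangles, I90-79; grey, control; blue, HMGB1 knockdown; open symbols under the dotted line, 0 counts). Control libraries sit below knockdown libraries for every gene, and MT2A spans 558 to 2728 CPM while MT1H reaches 0.384 CPM at most.

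The remaining 5 genes were near or at the detection floor of the control libraries, and their ratios rest on few reads. MT1F (ENSG00000198417, chr16:56691606-56694610, plus strand) had 3 and 17 reads in the controls of I90-10 and I90-79 and 188 and 193 reads in their knockdown libraries. These were 0.102 and 0.461 CPM against 6.51 and 6.18 CPM, so the control libraries differed 4.52-fold from each other while the knockdown libraries were alike. The ratio was 63.7-fold in I90-10 and 13.4-fold in I90-79. Summed over both isolates it was 21.0-fold (95% exact counting interval 13.4 to 34.8).

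MT1G (ENSG00000125144, chr16:56700643-56701977, minus strand), the one member of the 9 on the minus strand, was almost silent in control cells. It had 0 reads in the I90-10 control, 1 read in the I90-79 control, and 204 and 240 reads in the knockdown libraries. The knockdown libraries thus held 7.06 and 7.69 CPM against 0 and 0.0271 CPM. The ratio of the summed reads was 489-fold with a 95% exact counting interval of 87.3 to 19364, which is wide because it rests on 1 control read.

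MT1M (ENSG00000205364, chr16:56666145-56667898, plus strand) had 2 and 6 reads in the controls of I90-10 and I90-79 and 28 and 29 in their knockdown libraries. The summed ratio was 7.85-fold (3.73 to 19.1). MT1A (ENSG00000205362, chr16:56672578-56673999, plus strand) had 2 and 11 reads in the control and 25 and 20 in the knockdown libraries, a summed ratio of 3.81-fold (2.02 to 7.71). For both genes the groups did not overlap, but the I90-79 control of MT1A lay within 2.15-fold of the lower knockdown library. MT1H (ENSG00000205358, chr16:56703726-56705041, plus strand) had no read in either control and 8 and 12 reads in the knockdown libraries. Against a floor of 3 counts over the control group (0.0453 CPM), MT1H was at least 7.34-fold higher in knockdown libraries, with the 20 knockdown reads taken as counted. The 95% exact counting interval of the ratio starts at 5.44. MT1H was the one member that did not pass the low-count filter. Intervals and floors cover counting error only.

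The 5 scarce genes together had 0.238 and 0.950 CPM in control and 15.7 and 15.8 CPM in knockdown cells, so that the isolates differed 3.99-fold in control and 1.01-fold in knockdown cells. For each of the 7 genes with reads in every library, the 2 knockdown libraries were closer to each other by ratio than the 2 controls were. MT1G (0 and 1 control reads) and MT1H (0 in both controls) gave no control ratio to compare.

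**Figure D3:**
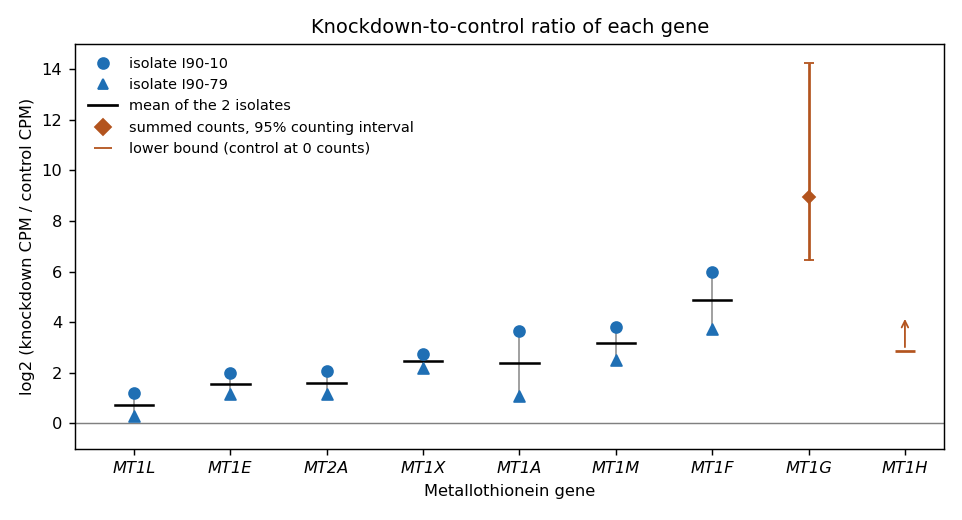
Log2 ratio of knockdown to control CPM for each gene (circles, I90-10; triangles, I90-79; bars, mean of the 2 isolates; diamond, MT1G from summed reads with its 95% counting interval; dash with arrow, lower bound of MT1H). For all 7 genes with reads in every library the I90-10 ratio lies above the I90-79 ratio, from MT1L (1.21 and 0.30) to MT1F (5.99 and 3.74). All 7 share the same I90-10 control, which was their lowest library.

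On comparing genes with each other, levels were divided by exon length (CPM per kilobase). The order in control libraries was MT2A (685 ± 362, SD, n = 2), MT1E (92.7 ± 44.2), MT1L (34.1 ± 15.1), MT1X (3.39 ± 1.16), MT1A (0.463 ± 0.411), MT1F (0.149 ± 0.134), MT1M (0.123 ± 0.0711), MT1G (0.0181 ± 0.0256) and MT1H at 0. The first 4 genes did not overlap with each other in any library, whereas MT1A, MT1F and MT1M did not differ beyond their spread. In knockdown libraries the first 4 kept their places, at 1944 ± 221 for MT2A, 262 ± 23.9 for MT1E, 54.5 ± 0.649 for MT1L and 18.3 ± 1.23 for MT1X. The order of MT1L and MT1X depends on their exon lengths, 411 and 1773 bases. Not divided by length, mean levels were 14.0 and 6.01 CPM in control and 22.4 and 32.4 CPM in knockdown libraries. MT1G moved from place 8 to place 5, at 9.83 ± 0.586 per kilobase, ahead of MT1F (3.36 ± 0.123), MT1A (1.90 ± 0.402), MT1M (1.01 ± 0.0307) and MT1H (0.457 ± 0.105), and no neighbours in this order overlapped.

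The counts of members past each criterion are given beside the share of all genes, and nothing is read from them because the same contrast picked the genes. With thresholds of 0.01 on the adjusted p and 0.6 on the size of the log2-fold change, edgeR's quasi-likelihood test called 31 of 15398 genes (0.201%), and 10 upward (0.0649%), of which MT1G was 1 of the 8 members tested. With the isolate as a replicate block it called 2235 genes (14.5%) and 1028 upward (6.68%), of which 6 were members, namely MT2A, MT1E, MT1M, MT1F, MT1G and MT1X. A level above 2 times the control in both isolates was found for 7 of the 8, all but MT1L, against 3.55% of genes. The lower knockdown library exceeded the higher control library for 8 of the 8, against 29.8% of genes. MT1M, MT1A, MT1F and MT1G, with 0 to 17 reads in a control library, passed the low-count filter only through their knockdown libraries. For them the filter itself favoured a higher knockdown level. By ratio, the member just inside the 2-fold criterion was MT1A (lower isolate 2.15-fold) and the one outside it was MT1L (1.23-fold).

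The isolates offered a contrast that the choice of genes did not use. All 8 members tested had a higher estimate in I90-79 than in I90-10, in a fit with the knockdown as a term (edgeR's quasi-likelihood test), with a median log2 difference of 0.32 against 0.01 for all genes, of which 50.8% were higher. The estimates were 0.68 for MT2A (SE 0.19, adjusted p = 0.0758), 0.59 for MT1E (SE 0.17, adjusted p = 0.0906), 0.46 for MT1L (adjusted p = 0.233) and 0.38 for MT1X (adjusted p = 0.215). For the other 4 members they lay between 0.15 and 0.26, with adjusted p from 0.744 to 0.872. None of the 8 passed the threshold, which 257 genes (1.67%) did, 68 higher and 189 lower in I90-79. Unadjusted p-values below 0.05 were found for 3 of the 8, MT2A, MT1E and MT1X, and for 22.2% of all genes, and DESeq2 called 0 of the 8 as well. An isolate difference in the metallothionein genes was thus not shown at this number of libraries.

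The isolate estimate averages over unlike values in the 2 groups. Between the control libraries, I90-79 exceeded I90-10 by 2.19-fold for MT2A, 2.02-fold for MT1E, 1.91-fold for MT1L, 1.64-fold for MT1X and 4.52-fold for MT1F. Between the knockdown libraries the same folds were 1.17, 1.14, 1.02, 1.10 and 0.949. More than 2-fold between isolates was reached by 5 of 7 members with reads in every library in control cells, against 3.96% of genes, and by 0 of 7 in knockdown cells, against 2.88% of genes. Among the 5, MT1M, MT1A and MT1F had 2 to 17 reads in a control library, where counting error alone can give a wide ratio. Whether the knockdown ratio differed between the isolates could not be tested, since a model with that term leaves no spare library.

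Of 12 further metallothionein genes and pseudogenes listed, 11 were in the files and 5 had 0 counts in all libraries (MT1B, MT1CP, MT4, MT1HL1 and MT1P3). MT3, best known from brain, had 1 and 6 reads in control and 1 and 0 in knockdown cells. MT1DP, MT1JP and MT1P1 had 1 to 3 reads in all and MT1XP1 had 13. The genes of the cluster thus differed at this depth, since MT1B lies between MT1A and MT1F and had no read in any of the 4 libraries.

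MT2P1 (ENSG00000162840), a pseudogene of the MT2 type on chromosome 4, was the exception with enough reads for the test. It had 6 and 14 reads in control and 35 and 38 in knockdown libraries. MT2P1 thus passed the low-count filter only with the help of its knockdown libraries, and the filter favoured a higher knockdown level. It had 0.204 and 0.380 CPM in control and 1.21 and 1.22 CPM in knockdown libraries, a log2-fold change of 2.02 (SE 0.45, adjusted p = 0.0557, edgeR), which did not pass. Of the 1005 distinct pieces of 50 bases in MT2A transcripts, 20 also occur in MT2P1. Among the 9 genes, between 1.24% (MT1F) and 18.2% (MT1M) of 50-base pieces of the annotated transcripts also occur in transcripts of another locus, but at 100 bases this was 0 for all except MT1H (1.39%, from MT1HL1). These transcripts did not cover all counted exon bases. MT1L gave 137 pieces of 50 bases for 411 exon bases, and MT1M 461 for 942, so the rest was not checked. The counting used reads that map once, so reads from the shared stretches can be lost or, where a read spans a difference, assigned to the right copy.

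No gene next to the cluster was called by the fit without a block. The members span 76.0 kb, with BBS2, a gene of the primary cilium, 87.9 kb before them and NUP93, a nuclear pore gene, 45.9 kb after them as the nearest other genes tested. BBS2 had 34.6 and 28.6 CPM in control and 32.2 and 29.7 CPM in knockdown libraries (log2-fold change −0.03, SE 0.15, adjusted p = 0.918, edgeR). NUP93 had 57.7 and 60.2 CPM against 40.2 and 37.8 CPM (−0.60, SE 0.11, adjusted p = 0.0406). With the isolate as a replicate block its adjusted p was 0.00326 (edgeR), and its log2-fold change, −0.60, did not pass the 0.6 cutoff. Of 11 non-metallothionein genes tested within 500 kb, 5 had a positive and 6 a negative estimate, the median was −0.03 as against −0.01 for all genes, and 0 were called. An unadjusted p below 0.05 was found for 5 of the 11 and for 28.3% of all genes tested. DESeq2 called 10 genes over this list and those described next, and 1546 of all 15398 genes. Once the replicate block was added, 2 passed, both downward, as did 7.84% of all genes in that direction. They were NUDT21 (−0.61, adjusted p = 0.00216), a polyadenylation factor gene, and CPNE2, which is named after its values were seen.

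**Figure D4:**
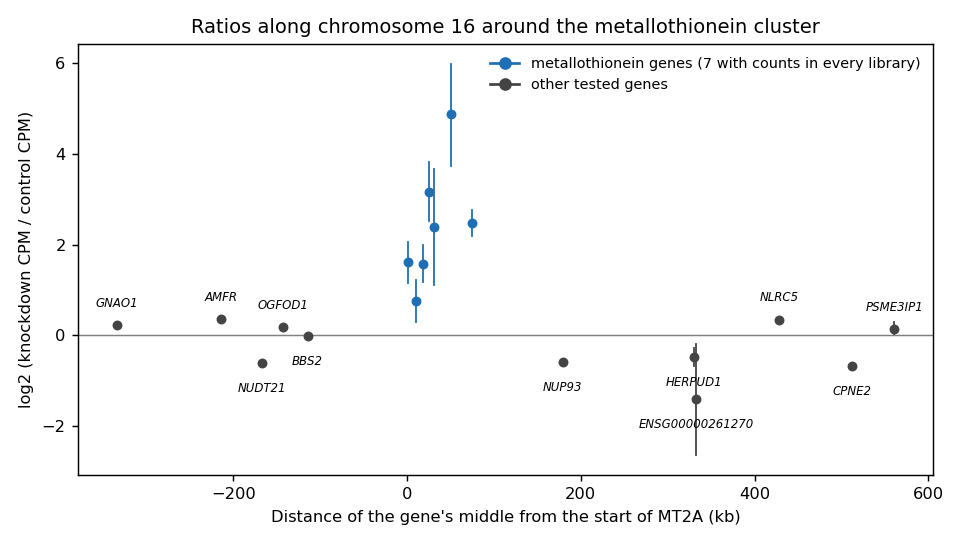
Mean log2 ratio of knockdown to control CPM, with the 2 isolates as the ends of each line, against the distance in kb of each gene's middle from the start of MT2A. The 7 metallothionein genes with reads in every library (blue) lie between 0.75 and 4.87, and 10 of the 11 tested neighbours (grey) lie within 1 log2 unit of 0.

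Genes of the pathways known to act on metallothioneins were counted from lists of zinc, copper, glucocorticoid, NRF2 and heat shock genes. No gene of these lists was called by the fit without a block. The counts below stand against all 15398 genes tested, of which 28.3% had an unadjusted p below 0.05, and 6.68% passed upward and 7.84% downward with the block. Of 18 zinc handling genes tested, 10 had a positive and 8 a negative estimate (median log2-fold change 0.04; 7 with an unadjusted p below 0.05), and 1 passed upward and 2 downward with the block. MTF1, the zinc-sensing activator of metallothionein genes, had 33.1 and 40.0 CPM in control and 64.4 and 84.5 CPM in knockdown libraries. Its groups did not overlap, and the log2-fold change was 1.03 (SE 0.18, adjusted p = 0.0362, edgeR), which did not pass, whereas with the replicate block it was 1.02 (adjusted p = 0.000273) and passed. SLC30A1, the zinc exporter that MTF1 also drives in response to zinc, had 38.9 and 47.2 CPM in control and 40.8 and 43.7 CPM in knockdown libraries, a log2-fold change of −0.03 (SE 0.14, adjusted p = 0.919). SLC39A9, a zinc importer family member, had 109 and 105 CPM against 49.3 and 50.9 CPM, with adjusted p = 0.012 without and 0.000174 with the block. In the promoter windows SLC30A1 held 2 metal response element cores and MTF1 held 0.

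Of 9 copper handling genes, 6 had a positive and 3 a negative estimate (median 0.37; 6 with an unadjusted p below 0.05), and 3 passed upward and 1 downward with the block. SLC31A1, the copper importer of the plasma membrane, had 130.2 and 190.1 CPM in control and 318 and 379 CPM in knockdown libraries (log2-fold change 1.12, SE 0.22, adjusted p = 0.0435; 0.000221 with the block). SCO1, a mitochondrial copper chaperone, had 17.6 and 19.5 CPM against 36.9 and 40.5 CPM (1.06, SE 0.13, adjusted p = 0.0179; 0.000301 with the block). Both genes were higher in each isolate. At the thresholds used here they passed in the edgeR fit with the block and not in the one without it.

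Of 8 glucocorticoid response genes, 3 had a positive and 5 a negative estimate (median −0.09; 2 with an unadjusted p below 0.05). FKBP5, a strongly glucocorticoid-induced gene, had 26.1 and 25.1 CPM in control and 18.1 and 18.3 CPM in knockdown libraries (log2-fold change −0.49, adjusted p = 0.0764). ERRFI1, a feedback inhibitor of the EGF receptor, had 229 and 114 CPM against 41.0 and 34.5 CPM (−2.18, SE 0.34, adjusted p = 0.0285; 0.000122 with the block). The 1 gene of this list that passed with the block was thus lower in knockdown cells.

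All 11 NRF2 pathway genes on the list were tested, of which 9 had a positive and 2 a negative estimate (median 0.38; 5 with an unadjusted p below 0.05), and 3 passed upward and 1 downward with the block. HMOX1, the heme-degrading enzyme, had 56.1 and 40.4 CPM in control and 106 and 70.7 CPM in knockdown libraries (0.87, SE 0.25, adjusted p = 0.0981; 0.00052 with the block). TXNRD1, thioredoxin reductase, had the opposite sign, with 1202 and 1191 CPM against 286 and 394 CPM (−1.81, SE 0.20, adjusted p = 0.0142; 7.44e-05 with the block). OSGIN1 had 30.3 and 33.2 CPM against 46.5 and 57.3 CPM (0.71, SE 0.15, adjusted p = 0.0501; 0.00171 with the block). Of 9 heat shock genes, 7 had a positive and 2 a negative estimate (median 0.08, 3 with an unadjusted p below 0.05). With the block 1 passed upward and 0 downward. BAG3, a co-chaperone, had 84.2 and 81.2 CPM against 125 and 121 CPM (0.58, SE 0.10, adjusted p = 0.0381). With the block its adjusted p was 0.0025 (edgeR), and its log2-fold change, 0.58, did not pass the 0.6 cutoff. HSPE1, a mitochondrial chaperonin, had 41.9 and 63.9 CPM against 78.9 and 83.7 CPM (0.62, SE 0.21, adjusted p = 0.138 without and 0.00811 with the block).

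**Figure D5:**
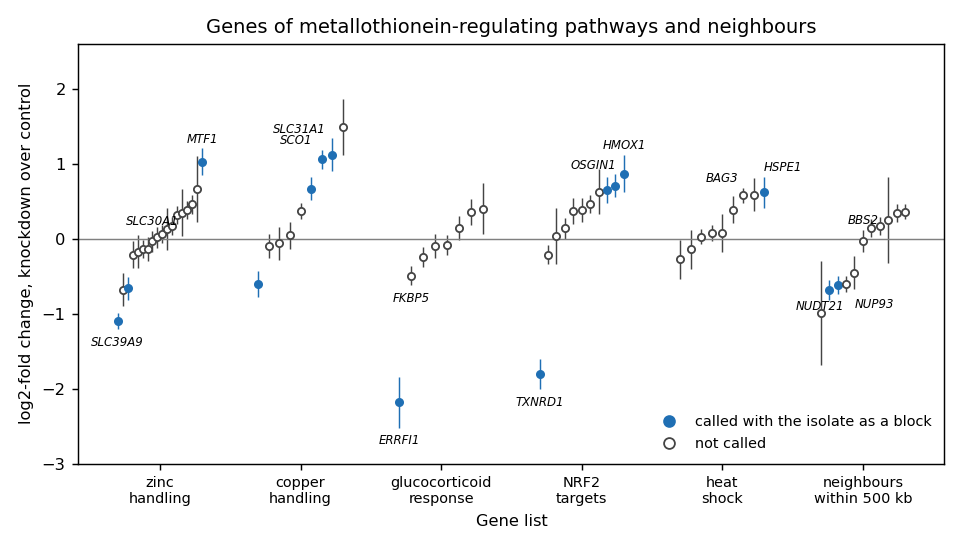
Log2-fold change (knockdown over control) with its SE from the fit without a block, for each tested gene of the lists; filled points were called once the isolate was a block. MTF1 lies at 1.03 and SLC30A1 at −0.03 within the zinc list, and no gene of the 6 lists passed without the block.

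In the 4 libraries the genes whose profile was most like that of the summed metallothionein level were MSX2, ABCA6, GK, CD36 and TNFAIP6, out of 13100 genes that averaged 1 CPM or more. Likeness was the root mean square difference of the centred log2 levels, which was 0.08 for MSX2 and ABCA6, 0.09 for GK, 0.10 for CD36 and 0.12 for TNFAIP6. MSX2, a homeobox transcription factor gene, had 8.07 and 16.7 CPM in control and 31.3 and 35.4 CPM in knockdown libraries, and the same order of libraries, with the I90-10 control lowest, held for all 5 genes. With 4 libraries such profiles rest on few points and many genes can share one.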

How the data were processed

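The authors transfected IMR90 cells with siRNA, selected poly(A) RNA, prepared TruSeq libraries, sequenced them paired-end, mapped reads to hg19 with STAR and counted uniquely mapped reads on genes with featureCounts. The deposited files hold raw counts, not normalized, for 63677 genes in 1 library each. Versions, strand setting and the counting of read pairs are not given in the sources used here. No blank or summary rows were found. The library totals of 29861687 to 35317010 counted reads set the precision.

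The members and lists were chosen with earlier results of these data known. Counts went into edgeR 4.0.16 (R 4.3.3, limma 3.58.1) with filterByExpr (15398 genes kept), TMM scaling and the quasi-likelihood test, p-values adjusted by Benjamini-Hochberg, and no term for the isolate. Calls used the cutoffs in the study's methods, 0.01 for the adjusted p and 0.6 for the size of the log2-fold change. The study applied them to DESeq2 results after RUVs, a correction for unwanted variation, so the edgeR fit used here is not the study's own. Isolates, and so replicate numbers, pair the libraries, since each isolate occurs in both groups. The difference between isolates correlated at 0.464 between control and knockdown over 15398 genes. The fits were tested on simulated counts. Alternatives were the replicate block, DESeq2 1.42.0, RUVs with 1 factor (re-coded here) before DESeq2, other scalings, filters and thresholds, and leaving out each library.

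All 9 members were named, together with the metallothionein genes with any count, the 2 of each list that had the lowest p, MTF1, SLC30A1, HMOX1, the nearest neighbour on each side and the 5 genes nearest in profile (log2 of CPM plus 0.5). Symbols were found for 55665 identifiers. With 2 libraries in each group an exact permutation test cannot give a p below 0.333.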

Additional observations from a re-analysis of the deposited data

How the results depend on the processing

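The libraries are paired by isolate, and with the replicate block the genes called between knockdown and control went from 31 to 2235, members from 1 to 6 and genes of the related lists from 0 to 15. For the same 3 counts, DESeq2 gave 1546, 5 and 10, RUVs followed by DESeq2 gave 1593, 4 and 12, no filter gave 2393, 8 and 15, and an adjusted p below 0.05 gave 1243, 4 and 8. Bias-adjusted deviances called 98 genes. With at least 10 counts in every library 0 members were called, as MT1G was then not tested. Leaving out 1 library gave 0 to 642 genes, 0 to 5 members and 0 to 4 related genes, with 0 of each without either knockdown library. The lone library of a group was then assumed to vary like the other group.

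The isolate contrast called 257 genes, with DESeq2 450, at an adjusted p below 0.05 701 and without the knockdown term 0. In all 5 alternatives run it called 0 members. It was not run without 1 library, since no residual degree of freedom remains. The log2 ratio of the summed level, averaged over the isolates, was 1.61. The log2 ratio of the group means, with no replicate block, was 1.51. That ratio was 1.06 (without control replicate 1) to 2.17 (without control replicate 2) when 1 library was left out. A lone library of 1 isolate then stood against the mean of both isolates. The same omissions gave 1.33 and 3.47 for MT1A, 3.78 and 5.96 for MT1F and 2.54 and 3.80 for MT1M, whose control levels rest on 2 to 17 reads per library. No direction reversed under the alternatives run.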
